A study of Mus musculus with 4 samples.

Results

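The Sox genes described here are the 8 family members Sox2, Sox4, Sox6, Sox7, Sox9, Sox11, Sox13 and Sox21, grouped as Sox genes of the ectoderm. For each gene, the members of the data set were the rows of the deposited peak lists whose centre lay within 100 kb of its start site, taken as the start of the principal protein-coding transcript in GENCODE release M21 on the mouse build GRCm38. This rule took 89 of the 65467 peaks of accessible chromatin called in control surface ectoderm. It took 0 of the 3103 regions called as more accessible in control than in mutant ectoderm. The paper also reports regions that became more accessible in mutant ectoderm, and these were not examined here. Accessibility was measured by ATAC-seq, in which a transposase inserts sequencing adapters wherever DNA is exposed, so a peak is a stretch of open chromatin and not a measure of expression.

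The study compared facial surface ectoderm of control mouse embryos with that of embryos lacking AP-2α and AP-2β, the transcription factors encoded by Tfap2a and Tfap2b. Tissue was taken at E11.5, peeled from the facial prominences with dispase and pooled, and 4 libraries were made, 2 of each genotype. Mutant embryos, called EDKO for ectodermal double knockout, were Tfap2a flox/flox; Tfap2b flox/flox and carried the Crect transgene. Control littermates lacked Crect and carried 1 floxed copy of each gene, so floxed alleles were shared by both genotypes. Crect expresses Cre recombinase under an enhancer taken from an intron of Tfap2a, which is active in early surface ectoderm, and the methods cite frequent broader recombination with it and describe steps taken to avoid this. The peak caller combined the libraries of a genotype, so that the control list rests on both control libraries together and the second list weighs the control signal against a background built from both EDKO libraries. Regions of the second list are called AP-2-dependent regions below, which names the contrast that made them. A peak that is missing from the second list has no value in the EDKO libraries here. Since neither list gives a value per library, no spread between replicates and no test of a difference could be computed, and all comparisons are descriptions of these lists. In a bulk tissue, fewer cells with an open site and a less open site in each cell cannot be told apart.

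Sox proteins bind DNA through an HMG box, a domain that enters the minor groove and bends the helix, and they are sorted into groups by the similarity of that box. Sox2 belongs to group B1, whose members keep epithelial and neural progenitors undifferentiated, and it marks the placodes of the lens, nose and ear. Sox21, of group B2, often acts as a repressor of genes that group B1 proteins activate and is needed for normal hair. Sox4 and Sox11, of group C, are activators that are widely used in embryonic progenitors. Sox6 and Sox13, of group D, pair through a coiled coil and carry no activation domain of their own. Sox9, of group E, directs cartilage formation and is a factor of hair follicle and glandular progenitors. Sox7, of group F, is best known from developing endothelium. AP-2 proteins bind GC-rich palindromes of the form GCCNNNGGC, where N is any base. Many developmental genes of this kind lie alone in long stretches without other genes, in which enhancers can be far from the promoter.

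The sequences that follow are the 250 bases before the start sites of the 4 members whose promoter held the AP-2 palindrome, and of Sox6, the only member with no control peak over its start site. All were read from GRCm38 and are written 5′ to 3′ on the strand of the gene. Capitals mark matches, on either strand, to the 4 strings that were searched, which are the AP-2 palindrome GCCNNNGGC, the Sox string AACAAT, the TEAD string GGAATG and the grainyhead-like (GRHL) string AACCGG. TEAD and GRHL proteins are factors of epithelial cells. The coordinates are chr3:34650155-34650404 on the plus strand for Sox2, chr12:27342575-27342824 on the minus strand for Sox11, chr14:118237031-118237280 on the minus strand for Sox21, chr14:63943423-63943672 on the plus strand for Sox7 and chr7:115995087-115995336 on the minus strand for Sox6.
Sox2 promoter: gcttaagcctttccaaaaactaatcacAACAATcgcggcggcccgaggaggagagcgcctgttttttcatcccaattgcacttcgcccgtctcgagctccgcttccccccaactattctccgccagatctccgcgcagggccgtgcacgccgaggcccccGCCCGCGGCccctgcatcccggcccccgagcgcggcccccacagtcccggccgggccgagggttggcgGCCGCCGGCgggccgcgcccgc
Sox11 promoter: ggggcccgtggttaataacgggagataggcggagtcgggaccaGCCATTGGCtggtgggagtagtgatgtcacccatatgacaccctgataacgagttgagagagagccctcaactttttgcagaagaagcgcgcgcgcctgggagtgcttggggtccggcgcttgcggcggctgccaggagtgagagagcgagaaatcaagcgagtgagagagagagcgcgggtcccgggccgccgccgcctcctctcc
Sox21 promoter: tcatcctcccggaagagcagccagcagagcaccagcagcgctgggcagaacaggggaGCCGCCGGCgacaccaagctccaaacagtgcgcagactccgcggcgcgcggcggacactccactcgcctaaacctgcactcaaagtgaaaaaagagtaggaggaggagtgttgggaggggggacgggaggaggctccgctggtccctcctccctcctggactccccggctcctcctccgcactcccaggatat
Sox7 promoter: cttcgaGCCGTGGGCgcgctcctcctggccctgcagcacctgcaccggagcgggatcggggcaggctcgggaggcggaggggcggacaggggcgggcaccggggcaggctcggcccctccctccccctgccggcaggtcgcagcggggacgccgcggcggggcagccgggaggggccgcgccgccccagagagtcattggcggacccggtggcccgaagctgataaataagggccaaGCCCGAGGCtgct
Sox6 promoter: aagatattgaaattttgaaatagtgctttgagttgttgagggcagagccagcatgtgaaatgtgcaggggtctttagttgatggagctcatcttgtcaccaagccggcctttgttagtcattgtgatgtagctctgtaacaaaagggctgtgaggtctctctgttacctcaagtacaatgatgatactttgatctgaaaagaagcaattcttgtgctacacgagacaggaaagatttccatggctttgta

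The Sox2 promoter held the AP-2 palindrome at 2 positions and was the only one of the 8 with the Sox string. Sox7 also had 2 palindromes, and Sox11 and Sox21 had 1 each. The promoters of Sox4, Sox9, Sox13 and Sox6 held none. Of the 250-base promoters of all 21829 protein-coding genes, 15.4% held the palindrome, against 4 of 8 here. The comparison was not matched for GC content, although the palindrome is GC-rich. GC content was 62.8 to 76.8% in the 4 promoters that held it and 41.6 to 68.8% in the other 4. The TEAD string occurred in the promoter of Sox4 alone, against 11.2% of all promoters, and the GRHL string in none of the 8, against 6.23%. A match is a run of letters and says nothing about binding.

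The 201 bases centred on the summit, the base with the lowest p in the peak, are shown next for 6 control peaks outside the promoters. They were chosen to show 1 example from each of Sox2, Sox21, Sox4, Sox11, Sox13 and Sox9 that held one of the 4 strings. The peak 9.52 kb upstream of Sox2 lies in an intron of the non-coding gene Sox2ot, and its window is chr3:34640730-34640930. The window 8.73 kb downstream of the Sox21 start, chr14:118228007-118228207, is intergenic. The window 72.3 kb downstream of the Sox4 start, chr13:28881437-28881637, is in an intron of the non-coding gene 2610307P16Rik. The window 44.3 kb upstream of Sox11, chr12:27386795-27386995, is intergenic and holds the TEAD string at 2 positions. The window 5.83 kb downstream of the Sox13 start, chr1:133418301-133418501, is in an intron of Sox13 and has the highest GC content, 75.6%, of the 70 windows that lie over 5 kb away from the principal coding start of every gene. The window 53.5 kb upstream of Sox9, chr11:112728652-112728852, is in an intron of the non-coding gene BC006965. Sox2 and Sox9 windows are on the plus strand and the others on the minus strand.
Sox2, 9.52 kb upstream: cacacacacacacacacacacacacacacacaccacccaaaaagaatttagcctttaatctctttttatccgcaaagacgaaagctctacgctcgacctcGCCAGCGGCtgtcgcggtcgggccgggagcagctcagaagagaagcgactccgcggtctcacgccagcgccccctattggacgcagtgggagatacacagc
Sox21, 8.73 kb downstream: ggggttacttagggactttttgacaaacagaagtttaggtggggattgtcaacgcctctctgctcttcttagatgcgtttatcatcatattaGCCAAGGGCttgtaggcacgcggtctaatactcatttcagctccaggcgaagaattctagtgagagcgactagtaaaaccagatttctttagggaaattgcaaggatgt
Sox4, 72.3 kb downstream: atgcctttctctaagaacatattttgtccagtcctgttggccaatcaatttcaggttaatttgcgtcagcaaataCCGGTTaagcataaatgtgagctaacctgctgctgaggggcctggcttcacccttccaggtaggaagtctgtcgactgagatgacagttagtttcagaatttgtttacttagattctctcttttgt
Sox11, 44.3 kb upstream: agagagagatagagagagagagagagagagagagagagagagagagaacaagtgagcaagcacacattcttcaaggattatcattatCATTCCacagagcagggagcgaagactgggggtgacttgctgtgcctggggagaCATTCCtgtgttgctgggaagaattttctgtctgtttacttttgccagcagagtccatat
Sox13, 5.83 kb downstream: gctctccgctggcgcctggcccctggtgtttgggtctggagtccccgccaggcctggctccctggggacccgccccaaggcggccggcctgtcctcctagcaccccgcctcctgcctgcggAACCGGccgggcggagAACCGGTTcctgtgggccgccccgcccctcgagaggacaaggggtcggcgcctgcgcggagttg
Sox9, 53.5 kb upstream: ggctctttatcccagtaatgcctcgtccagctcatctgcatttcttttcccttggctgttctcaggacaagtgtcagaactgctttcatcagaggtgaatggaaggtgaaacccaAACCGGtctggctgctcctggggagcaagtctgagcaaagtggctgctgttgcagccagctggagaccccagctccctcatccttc

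In control ectoderm, open chromatin surrounded most of these genes. Sox4 and Sox13 each had 17 peaks within 100 kb, Sox2 had 16, Sox11 and Sox21 had 12, Sox6 had 7, Sox9 had 5 and Sox7 had 3. The median over the members was 12, and that over all 21829 protein-coding genes was 8, with 4 and 13 as the lower and upper quartiles. By this count Sox4 and Sox13 stood at percentile 86.1 of all genes and Sox2 at 83.8, whereas Sox9 stood at percentile 34.0 and Sox7 at 21.9. The members thus lay on both sides of the middle of all genes.

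The count depends on the neighbours. Sox2, Sox4, Sox11 and Sox9 had no other protein-coding start site within 100 kb, and the nearest was 569 kb from Sox2 (Dnajc19), 696 kb from Sox4 (Gm11361), 873 kb from Sox11 (Cmpk2) and 784 kb from Sox9 (Slc39a11). Among the 2917 genes of this isolated kind the median count was 4, with quartiles of 2 and 7. Against these, Sox4 stood at percentile 96.4, Sox2 at 95.7, Sox11 at 90.4 and Sox9 at 59.7. Sox21, Sox6, Sox13 and Sox7 had 2, 2, 2 and 3 other start sites in the window. Of the 89 peaks, 74 had the Sox start site as the nearest of all start sites, namely every peak of the 4 isolated genes, 10 of 17 at Sox13, 7 of 12 at Sox21, 5 of 7 at Sox6 and 2 of 3 at Sox7.

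**Figure D1:**
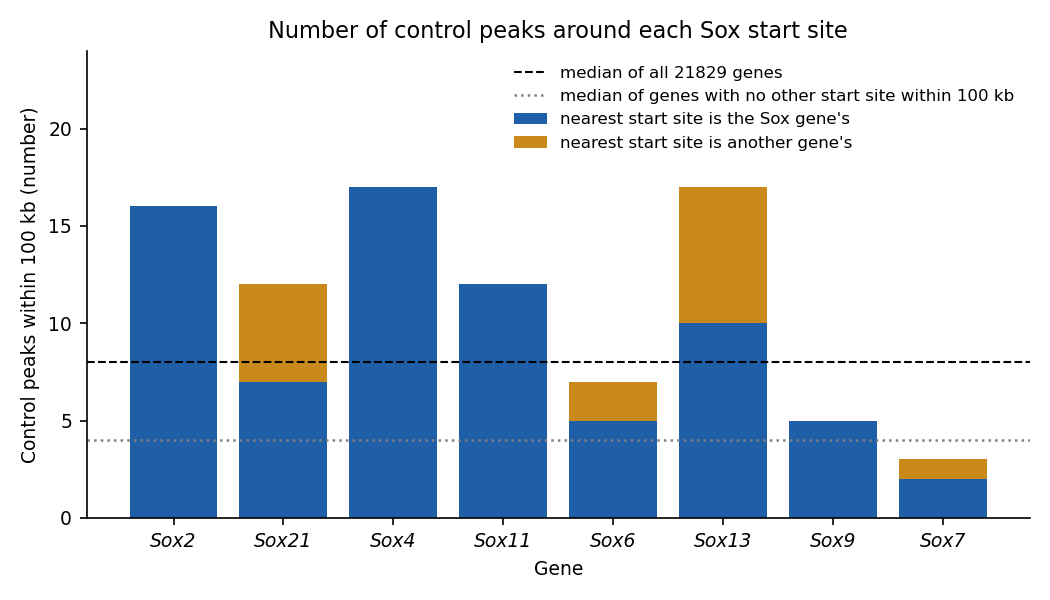
Number of control peaks (vertical axis) centred within 100 kb of the start site of each Sox gene (horizontal axis), split by whether the nearest protein-coding start site is that of the Sox gene or of another gene. The dashed line is the median of all 21829 genes (8) and the dotted line that of the 2917 genes with no other start site within 100 kb (4). Sox4 and Sox13 have 17 peaks, and Sox7 has 3.

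Each control peak has a summit −log10 p, which is the caller's evidence at the strongest base and is not adjusted for multiple tests. A control peak covered the start site in 7 of the 8 members, and 61.6% of all genes had such a peak. Sox11 had the strongest, with a summit −log10 p of 12.9 over 2997 bp (chr12:27341096-27344092). Sox4 followed with 11.8 over 2709 bp (chr13:28951697-28954405), and Sox9 with 10.7 over 4541 bp (chr11:112780983-112785523), the widest of the 89 peaks. At Sox2 the value was 9.90 over 2816 bp (chr3:34648568-34651383) and at Sox21 it was 9.68 over 3496 bp (chr14:118234232-118237727). Sox13 and Sox7 had the weakest start-site peaks, with 6.32 over 2190 bp (chr1:133422296-133424485) and 5.49 over 1417 bp (chr14:63942879-63944295). The median width of these 7 peaks was 2816 bp, against 560 bp over all control peaks on chromosomes and 1074 bp over those no more than 5 kb from any principal coding start. The last set also holds peaks that cover no start, and the width of all start-covering peaks was not computed. On the like measure, the 19 Sox peaks within 5 kb of a start had a median of 1417 bp.

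**Figure D2:**
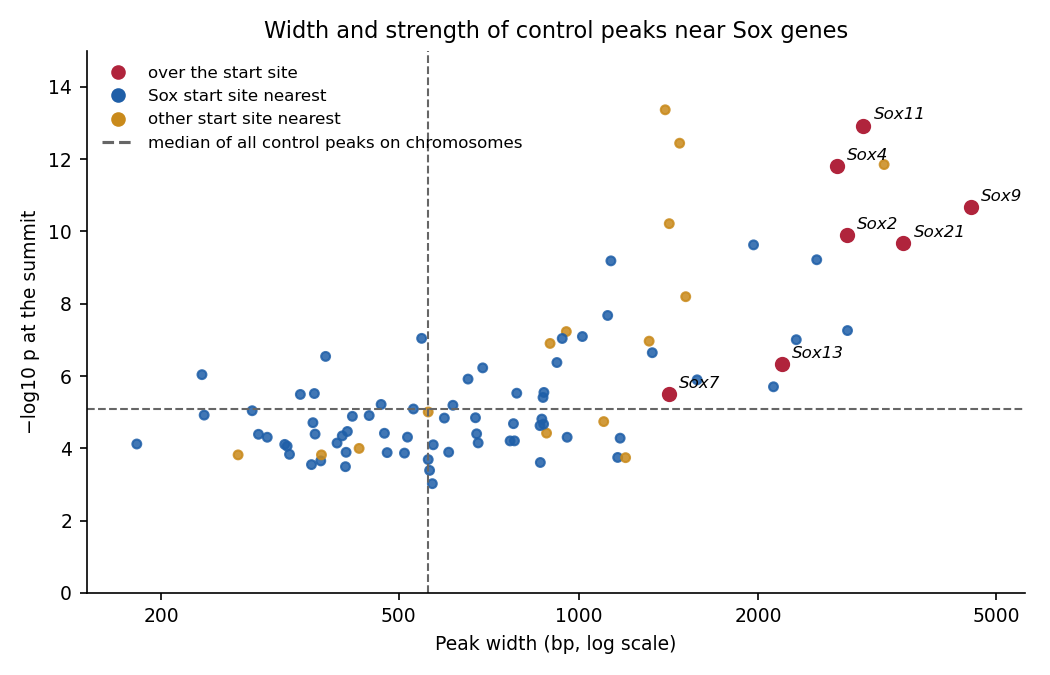
Width in bp (horizontal axis, log scale) and summit −log10 p (vertical axis) of the 89 control peaks, each point 1 peak, coloured by its relation to the start site. Dashed lines are the medians of all control peaks on chromosomes (560 bp and 5.10). The start-site peaks of Sox2, Sox4, Sox9, Sox11 and Sox21 are wide and strong, and those of Sox7 and Sox13 are weaker.

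At Sox2, the open sites formed a block. Of its 16 peaks, 11 lay in a stretch of 28.1 kb from 11.8 kb upstream to 15.8 kb downstream of the start, with no gap over 10 kb between neighbours (chr3:34638355-34666442). All 11 of these summits were in introns of Sox2ot, the long non-coding gene that contains Sox2, as were the summits at 60.7 and 88.5 kb upstream. On the upstream side of the block the values were 4.41 at 11.8 kb, 7.09 at 10.8 kb, 6.04 at 9.52 kb, 6.37 at 7.89 kb and 4.84 at 2.30 kb. On the downstream side the leading peak was a wide one of 2316 bp at 14.1 kb, with a value of 7.0 (chr3:34663357-34665672). Strong openness also appeared far from the block. The strongest peak of Sox2 outside its promoter was 97.5 kb downstream, with a value of 9.19 over 1133 bp (chr3:34747301-34748433), in intergenic sequence. Peaks at 41.9 and 76.8 kb downstream were weak, at 4.11 and 3.55. Sox2 peaks covered 12.8 kb of the 200-kb window in all.

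Sox21 had its own block on the downstream side alone. It comprised 7 peaks over 11.7 kb, from the start-site peak to 10.8 kb downstream (chr14:118226032-118237727), and included the 2121-bp peak at 8.73 kb whose sequence is given above, with a summit value of 5.70. The other members of the block beyond the promoter lay between 3.65 and 5.09. Beyond the start-site peak, there was no control peak in the 29.9 kb between the starts of Sox21 and the predicted gene Gm9376 upstream. The other 5 peaks of the window were nearer to Gm9376 or Gpr180 than to Sox21, including the strongest distal peaks at 70.2 kb upstream (7.23) and 56.6 kb downstream (6.96). The strongest peak of the window, at 12.4, was 99.9 kb downstream at the start of Gpr180 and just inside the limit.

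The group C genes Sox4 and Sox11 had the strongest start-site peaks of the 8 members. At Sox4 a second wide peak of 2506 bp stood 5.25 kb upstream of the start (chr13:28957709-28960214), with a value of 9.22, which was the strongest distal peak of the gene. Of the 17 Sox4 peaks, 15 were downstream. Among these, 8 made a group from 66.9 to 86.3 kb downstream (chr13:28866842-28887113) at and within 2610307P16Rik, with the strongest values at 86.3 kb (7.67) and 72.3 kb (5.91) and the weakest, 3.39, at 70.0 kb. A group of 3 at 17.9 to 23.2 kb had values from 3.75 to 5.04.

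At Sox11 the peaks lay in spaced groups on both sides. A group of 4 was centred from 42.2 to 49.2 kb upstream (chr12:27384577-27392235), with values of 4.30, 6.54, 5.19 and 5.55 in order of distance. A group of 3 was centred from 50.6 to 58.9 kb downstream (chr12:27283325-27292105), led by the value of 6.22 at 58.9 kb. A pair at 30.5 and 32.0 kb downstream had values of 5.41 and 4.28. Apart from the start-site peak and 2 peaks over its untranslated region at 1.76 and 3.29 kb, no peak was found within 30 kb of the Sox11 start. All 9 distal peaks were intergenic, and none exceeded the value of 6.72 that was the median of distal control peaks overlapping an AP-2-dependent region.

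Of the group D genes, Sox6 alone among the 8 members had no control peak over its principal start. The sequence around this start was also poor in CpG dinucleotides, with an observed-to-expected ratio of 0.116 against 0.736 to 0.959 at the other 7 starts. Over all genes the median ratio was 0.736 at starts with a peak and 0.180 at starts without one. Sox6 has 8 annotated coding starts, and 3 of these were within control peaks. One, 36.0 kb upstream of the principal start, was in a peak of 2822 bp with a value of 7.26 (chr7:116030070-116032891). Another, 43.7 kb upstream, was in a peak with a value of 4.14. The remaining open start was 170 kb downstream, outside the window, with a value of 6.40. Next to the first of these lay a stronger peak, centred 38.9 kb upstream of the principal start, with a value of 9.63 over 1964 bp (chr7:116033005-116034968). A peak with a value of 8.19 stood at 44.9 kb upstream in an intron of the neighbouring gene 1110004F10Rik. Those 4 peaks lay within a span of 10.6 kb, and the rest of the window held a peak of 4.92 at 12.1 kb upstream, one of 4.39 at 33.9 kb downstream, and the peak of 13.4 at 98.3 kb upstream, which was nearest to the start of 1110004F10Rik.

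At Sox13 the start-site peak was weaker than a peak in an intron of the same gene. The intronic peak at 5.83 kb downstream had a value of 7.04, and the one at 76.2 kb upstream also had 7.04, against 6.32 at the start. The Sox13 window held the weakest of all 89 peaks, with a value of 3.02 at 10.2 kb upstream. Its strongest peak, 11.9 over 3250 bp at 60.2 kb downstream, covered the start of Etnk2, and a peak of 6.90 at 70.7 kb downstream was in an intron of Ren1. A group of 4 peaks from 58.7 to 76.8 kb upstream (chr1:133482949-133501381) lay in intergenic sequence nearest to Sox13.

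Sox9 and Sox7 had few peaks. Sox9 combined the widest start-site peak with only 4 others, at 53.5 kb upstream (6.64), 1.84 kb upstream (4.34), 28.9 kb downstream (4.20) and 88.1 kb downstream (3.61). At Sox7 the start-site peak and a peak of 4.84 at 2.65 kb upstream were the only peaks nearest to the gene. The strongest peak of that window, with a value of 10.2 at 83.3 kb upstream, was at the start of Pinx1, and no other peak of the window was more than 5 kb from the Sox7 start.

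The farthest peaks inside the limit of 100 kb had values of 9.19 at 97.5 kb from Sox2, 12.4 at 99.9 kb from Sox21, 7.67 at 86.3 kb from Sox4, 6.22 at 58.9 kb from Sox11, 13.4 at 98.3 kb from Sox6, 3.82 at 96.5 kb from Sox13, 3.61 at 88.1 kb from Sox9 and 10.2 at 83.3 kb from Sox7. The nearest peaks outside it had, in the same order of genes, 5.14 at 103.5 kb, 8.09 at 104.3 kb, 3.71 at 108.4 kb, 6.03 at 106.7 kb, 4.53 at 127.4 kb, 3.98 at 106.1 kb, 4.39 at 125.9 kb and 3.73 at 103.96 kb. The outer peak was the weaker one at every member but Sox13 and Sox9.

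**Figure D3:**
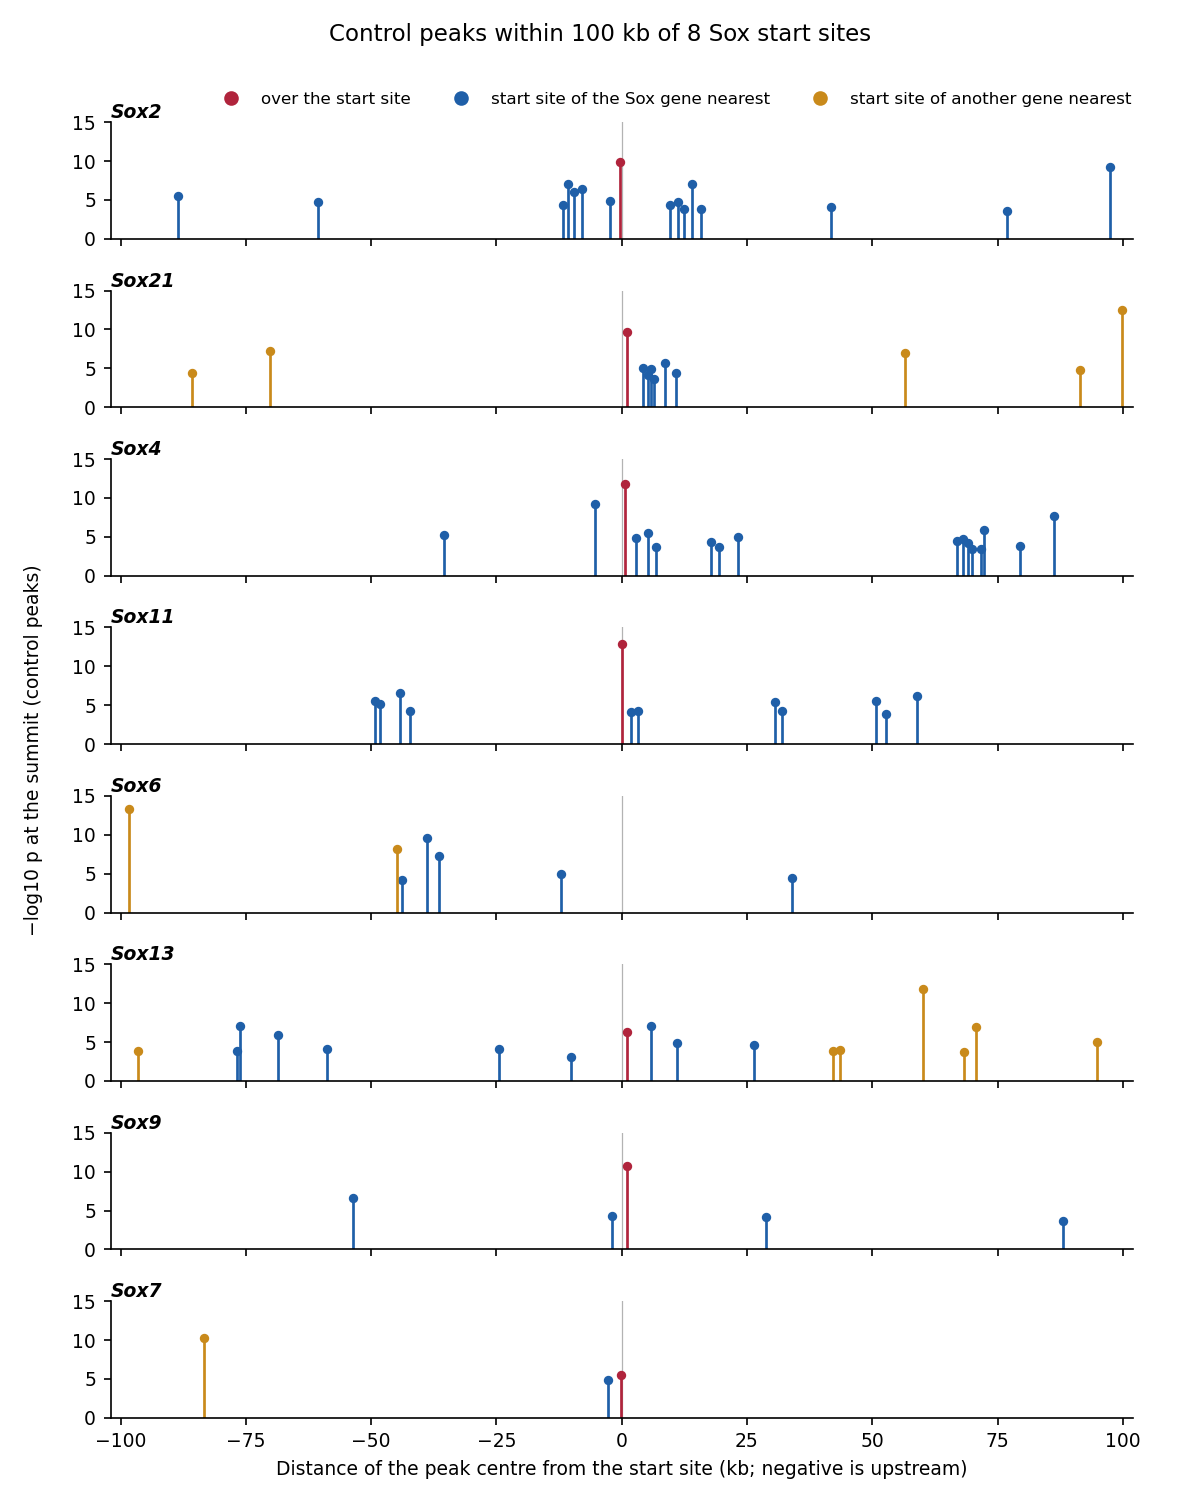
Every control peak within 100 kb of the 8 start sites, plotted by the distance of its centre from the start site in kb (horizontal axis, negative is upstream) and its summit −log10 p (vertical axis), 1 panel per gene. Peaks cluster near Sox2, on the downstream side of Sox21 and from 66.9 to 86.3 kb downstream of Sox4, and no line stands at the start of Sox6.

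Of the 89 summits, 44 were intergenic, 23 were in introns of non-coding genes and 13 in introns of coding genes, 5 were in untranslated regions, 2 in exons of non-coding genes, 1 in a coding exon and 1 in another exon. More lay downstream of the start (54) than upstream (35). The 70 distal peaks, those centred over 5 kb away from the principal coding start of every gene, had a median width of 588.5 bp against 467 bp over all 45616 distal control peaks, and a median summit value of 4.67 against 4.66. Their median GC content over 201 bases was 54.2% against 50.7%. The distal Sox peaks were thus close to other distal peaks in median strength.

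None of the 89 control peaks overlapped an AP-2-dependent region by as much as 1 bp. In the whole control list 4.48% of peaks did (2932 of 65467), a share that would correspond to 3.99 of 89 peaks. Among distal peaks, which hold most AP-2-dependent regions, the share was 5.75% (2622 of 45616), corresponding to 4.02 of 70. A count of 0 of 89 allows a share of up to 3.37% by the limit of 3 counts, or 4.06% by the exact Clopper-Pearson interval of 95%, and 0 of 70 allows up to 4.29% by the limit of 3 counts. These limits cover counting error only and take neighbouring peaks as separate, and the difference from the background was not tested. The 8 genes were chosen with earlier results of these data known, which the limits do not allow for. No depletion is therefore read from them. By gene, 20.2% of all protein-coding genes had an AP-2-dependent region centred within 100 kb (4410 of 21829), which would correspond to 1.62 of 8 genes, and 0 of the 8 members had one. Since 1.62 is itself small, no result about these genes is drawn from this count. Among the 2917 isolated genes the share was also 20.2%.

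The share of distal control peaks that overlapped an AP-2-dependent region rose with the strength of the control peak. In 4 classes of equal size, ordered by summit −log10 p, it was 0.859%, 2.54%, 5.35% and 14.2%. The distal Sox peaks were spread over these classes, with 16, 18, 19 and 17 peaks from the weakest to the strongest, and 0 in each class overlapped a region. The 17 of the strongest class, with values of at least 5.99, included the peaks 97.5 kb downstream and 10.8 kb upstream of Sox2, those 5.25 kb upstream and 86.3 kb downstream of Sox4 and the one 38.9 kb upstream of the principal start of Sox6, which is nearer to another annotated start of that gene. The class also held the Sox6 peaks centred 36.4 kb (7.26) and 44.9 kb (8.19) upstream. The first covers another annotated Sox6 start and the second is near one, since distal refers to principal starts only. By GC content, AP-2-dependent regions were more frequent in distal peaks of low GC, with shares of 8.55%, 6.26%, 4.78% and 3.40% in 4 classes from low to high. The distal Sox peaks leaned the other way, with 10, 14, 19 and 27 peaks in these classes. What strength or GC content contributed to the count of 0 was not tested.

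**Figure D4:**
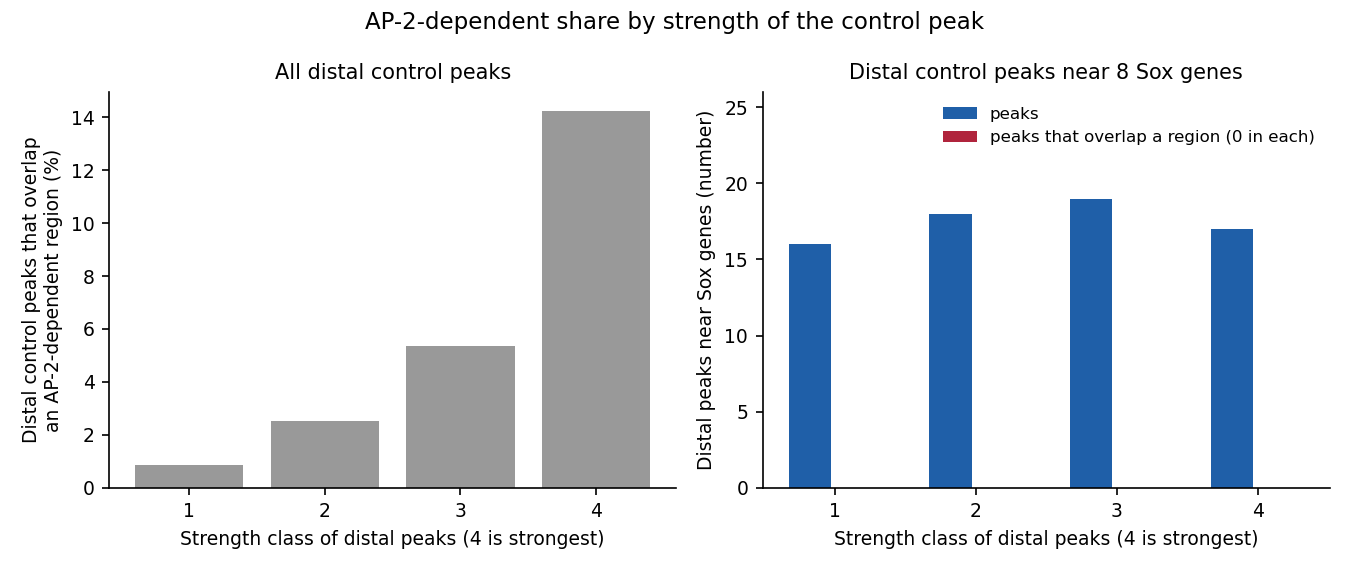
Left, percent of all distal control peaks that overlap an AP-2-dependent region in each of 4 strength classes, from 0.859% in the weakest to 14.2% in the strongest. Right, number of distal control peaks near the 8 Sox genes in the same classes (16, 18, 19 and 17), with 0 that overlap a region in any class.

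The closest AP-2-dependent region lay outside the window for every member. It was 121.8 kb upstream of Sox13, in intergenic sequence nearest to Snrpe and just beyond the limit, with a region −log10 p of 4.34 (chr1:133546092-133546307). It was 283.4 kb upstream of Sox6 in an intron of Plekha7 (3.88, chr7:116278268-116278622), and 294.8 kb downstream of Sox4 in an intron of 2610307P16Rik (5.19, chr13:28658751-28659133). For Sox2 it was 324.2 kb downstream (3.47, chr3:34974329-34974855) and for Sox11 365.7 kb downstream (3.69, chr12:26976735-26977035), in both cases intergenic and nearer to the Sox gene than to any other. It was 451.9 kb downstream of Sox21 in an intron of Gpc6 (4.04, chr14:117784899-117785293), 582.7 kb downstream of Sox9 in an intron of Slc39a11 (3.91, chr11:113364840-113365064), and 1400.3 kb downstream of Sox7 (5.64, chr14:65343795-65344164).

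A further region stood 420.5 kb upstream of Sox13, nearest to Atp2b4, with a value of 3.58 (chr1:133844638-133845159). The median distance to the closest region over the 8 genes was 344.9 kb, against 334.0 kb over all genes, with quartiles of 129.2 and 778.0 kb. The members stood between percentile 23.9 of all genes (Sox13) and 89.2 (Sox7). Sox4, Sox2 and Sox11 were the members for which the closest region had the Sox gene as its nearest start site. The Sox4 region was within a control peak of 1625 bp with a summit value of 11.9, and a further region followed 301.3 kb downstream of the start in the same non-coding gene, with a region value of 3.81. The 201 bases around the summit of the first are chr13:28658824-28659024 on the minus strand and hold the AP-2 palindrome at 1 position, which the summit windows of the Sox2 and Sox11 regions do not.
Sox4, AP-2-dependent region 294.8 kb downstream: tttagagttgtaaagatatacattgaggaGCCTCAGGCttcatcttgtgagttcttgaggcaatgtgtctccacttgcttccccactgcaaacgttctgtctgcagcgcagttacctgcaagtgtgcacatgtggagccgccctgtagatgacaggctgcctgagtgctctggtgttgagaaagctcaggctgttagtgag

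**Figure D5:**
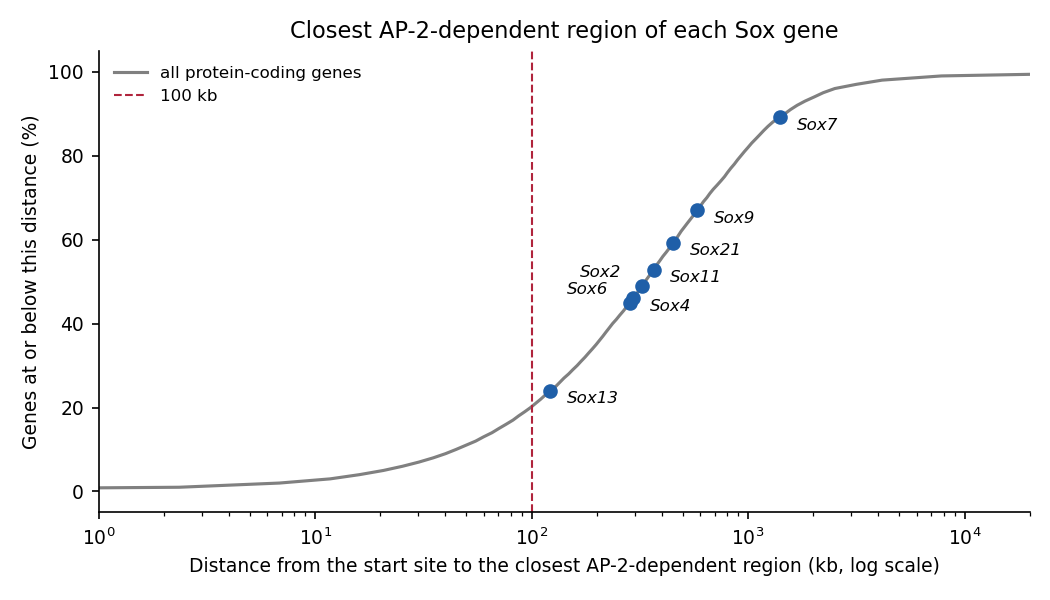
Distance from each start site to the closest AP-2-dependent region in kb (horizontal axis, log scale) against the percent of genes at or below that distance (vertical axis). The grey line is all protein-coding genes and each point is a Sox gene; the dashed line is at 100 kb. All 8 points lie beyond 100 kb, from 121.8 kb at Sox13 to 1400.3 kb at Sox7.

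The 4 strings were counted in the 201 bases around each of the 89 summits, with 95% Wilson intervals for counting error. The AP-2 palindrome was in 12 windows, 13.5% (interval 7.88 to 22.1%), against 14.4% of the 65298 control peaks on chromosomes. Those 12 were at Sox21 (4), Sox13 (3), Sox11 (2), Sox7 (2) and Sox2 (1), and none was at Sox4, Sox6 or Sox9. In distal windows the share was 10.0% at the Sox genes and 12.3% over all distal peaks, and it was 22.9% in distal peaks that overlapped an AP-2-dependent region. The Sox string was in 5 windows, 5.62% (2.42 to 12.5%), against 6.40%. These were 3 at Sox2, at 2.30 kb upstream and at 9.58 and 12.5 kb downstream, and 2 at Sox4, at 19.3 and 70.0 kb downstream. The TEAD string was in 19 windows, 21.3% (14.1 to 30.95%), against 17.9%. The GRHL string was in 6 windows, 6.74% (3.13 to 13.9%), against 4.39%, and these included the Sox13 intronic peaks at 5.83 and 11.1 kb downstream. For all 4 strings the background share was within the interval of the Sox peaks, so that no difference was detectable with 89 windows of this length. For the Sox string the direction turned with the length searched. Within 250 bp of the summit it was in 25.8% of Sox peaks (17.88 to 35.8%) against 17.9% of all, and over whole peaks in 30.3% (21.8 to 40.5%) against 21.2%, the only one of these shares whose interval left out the background. Whole Sox peaks were wider, with a median of 679 bp against 560 bp, whereas the windows of 250 bp on either side were equally long everywhere. What peak width contributed to these shares was not tested.

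The remaining 12 genes of the family (Sry, Sox1, Sox3, Sox5, Sox8, Sox10, Sox12, Sox14, Sox15, Sox17, Sox18 and Sox30) had 117 control peaks within 100 kb, from 0 to 18 a gene with a median of 10.5, close to the median of 12 of the 8 members. Their start sites were within control peaks in 10 of 12, the exceptions being Sox10 and Sry. One AP-2-dependent region was found among them, 13.9 kb downstream of the Sox8 start (chr17:25556679-25556917), with a region −log10 p of 5.48, inside a control peak with a summit value of 10.3. Over the 20 Sox genes together, 1 had a region within 100 kb, against the 20.2% of all genes given above. The 20 include the 8 members chosen with earlier results known, and Sry, which had 0 control peaks. The difference was not tested, and no result about the family is drawn from it.

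The tissue was checked by the start sites of marker genes. Each of the 11 surface ectoderm markers that are reported had a control peak over the start, with a median summit value of 9.97. The same held for 7 of 10 markers of facial mesenchyme and neural crest (median 5.14, with none at Prrx2, Pdgfra and Sox10), 4 of 6 of neurons (4.66), 1 of 5 of endothelium (Kdr) and 1 of 5 of blood (Tal1). Of the 7 Sox start-site peaks, all but that of Sox11 (12.9) lay in the range of these ectodermal markers, which ran from 5.32 at Krt19 to 12.4 at Esrp1. All but that of Sox11 also lay in the range of the mesenchymal markers, from 3.27 at Prrx1 to 12.1 at Snai1. Which cells the Sox peaks came from was not tested.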

How the data were processed

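ATAC-seq was made by the authors from facial surface ectoderm, with 2 libraries per genotype. The authors trimmed adapters with NGmerge, aligned reads to mm10 with Bowtie2, sorted them with SAMtools, and used the ATAC-seq mode of Genrich for peaks, leaving out mitochondrial reads and PCR duplicates. Genrich merged the libraries of a genotype, so read depth and values per library are not given in the lists. Both deposited lists hold an area and a score (area over width, multiplied by 1000 and never above 1000, as was true within 0.51 of all 65467 control rows) beside the summit's −log10 p, unadjusted, as deposited, and the summit position. Every area was at least 200.

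From these lists, distances were measured from peak centres to principal coding starts of GENCODE M21. An overlap needed 1 bp, distal meant more than 5 kb from every principal start, and 24 genes sharing a symbol were left out. Strings were counted on both strands, overlaps included, within 100 bp of each summit in GRCm38.p6 of RefSeq. Named peaks were, for each gene, the one over the start, the 3 strongest more than 5 kb away and the widest, beside all regions within 100 kb, of which there were 0. Regions farther away, up to 500 kb or the closest, were added. Other peaks were named after their values were seen. Groups of peaks were 3 or more with gaps of at most 10 kb. The members and lists were chosen with earlier results of these data known. Python 3.11.15, pandas 2.3.3, numpy 2.4.6 and scipy 1.17.1 were used, and the counting code was tested on simulated data. One marker of the ectoderm list is left out of its count and not reported here.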

Additional observations from a re-analysis of the deposited data

How the results depend on the processing

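The count of Sox peaks followed the window, with 56 control peaks within 50 kb, 215 within 250 kb and 371 within 500 kb. The count of AP-2-dependent regions was 0 at 50 kb, 1 at 250 kb and 8 at 500 kb, in 1 and 6 of the 8 members at the wider windows. Of all protein-coding genes, 41% had a region within 246.3 kb and 62% within 490.65 kb. In the 250-kb and 500-kb windows 0.465% and 2.16% of the Sox peaks overlapped a region, against 4.48% of all control peaks. These differences were not tested. With windows of 250 bp either side of the summit, 22.5% of Sox peaks held the AP-2 palindrome (24.6% of all) and 25.8% the Sox string (17.9%). Over whole peaks, which were wider at the Sox genes, these were 33.7% (32.4%) and 30.3% (21.2%), so that the Sox string was below the background in the narrow window and above it in the wider ones. With the string ACAATG in its place, the narrow window gave 8.99% against 7.34% of all, also above the background. The count of regions was also 0 when peaks were placed by summit, assigned to the nearest start only, measured from the most upstream start, or kept at an area of at least 500, which left 63 control peaks. None of these settings, nor the 50-kb window, could have brought in a region. Some only remove rows, and the closest region of any member was 121.8 kb away, at Sox13. They therefore say nothing about how stable the count of 0 is. No paired analysis was possible because the deposited lists combine the libraries of a genotype and hold no value per library, and leaving out a library could not be done for the same reason. The lists give no read depth per library, so a weak peak missed in the lists cannot be told from closed chromatin.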
